A study of Danio rerio with 6 samples.

Results

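Linker histones and variants of histone H2A were followed through the first hours of zebrafish development in 6 genes, which are the rows of a table of 32571 genes whose symbol is h1m, histh1l, h1f0, h1fx, h2afx or h2afvb. Each symbol stood on 1 row, so all 6 were found, 4 linker histones and 2 H2A variants. RNA came from pools of 40 to 50 whole embryos of the AB strain, with 1 deposited value per gene in each of 6 groups. Controls were collected in cleavage, 2 hours post fertilisation (hpf), and as gastrulation begins, at 6 hpf. All other groups were collected at 6 hpf. One is labelled CNOT7-DN and stands for the inhibition of the deadenylase CNOT7 that the design names, and one had received a morpholino that blocks the microRNA miR-430 (the group miR-430 MO). One had received a-amanitin, which inhibits RNA polymerase II, and control B is the 6 hpf control that the deposited comparisons pair with it. The labels do not say whether the controls were injected. The design states triplicates, but replicate values were not analysed here: no level below has a standard deviation and the read depth behind it is unknown.

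Linker histone H1 binds the nucleosome where DNA enters and leaves it and helps to compact chromatin. In many animals the egg supplies its own type of linker histone, which is replaced by somatic types as the embryo starts to transcribe its genome; in Xenopus this exchange accompanies the midblastula transition. Variants of H2A take the place of the common H2A: H2A.X is phosphorylated around DNA breaks, and H2A.Z lies at promoters and, in early zebrafish embryos, at genes that have not yet been switched on. At the same stage the embryo degrades much of the messenger RNA of the egg, through miR-430 and the CCR4-NOT deadenylase among other routes.

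Levels are FPKM, fragments scaled for transcript length and library size, so that levels of different genes can be set side by side. They are relative to all RNA sequenced in a group. Summed over all genes they were not equal, at 726913 FPKM at 2 hpf, 747626 in amanitin, 963040 in control B and 1035854 in control 6 hpf. In pools of whole embryos, fewer cells that hold a transcript cannot be told apart from less of it in each cell. Differences are log2 of the ratio of FPKM + 1, and a gene is said to have risen or fallen where q, as the authors' deposited table gives it, was under 0.05. Whether those q-values measure more than technical spread is not known, since nothing states that the triplicates were separate clutches.

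The groups matched their labels in the genes that could be checked, but no gene was used to check the label of miR-430 MO. Of 9 markers of the egg, all fell from 2 to 6 hpf in the authors' deposited table, where 51.7% of all tested genes fell. Their summed level was 5582 FPKM at 2 hpf and 2166 in control 6 hpf. Markers of the gastrula, also 9, summed to 3.72 FPKM at 2 hpf, 1295 in control 6 hpf, 1396 in control B and 2.96 in amanitin, where 8 of them were under 1 FPKM and 1 was listed at 0. The row of cnot7 stood at 12850 FPKM in CNOT7-DN and between 4.55 and 26.9 in the other groups. The median log2 ratio of all measured genes was -0.47 for control 6 hpf against control 2 hpf, -0.12 for miR-430 MO, 0.04 for CNOT7-DN, 0.12 for amanitin against control B and -0.34 for amanitin against control 2 hpf. Setting the median of the 81 ribosomal protein genes to 0 would add -0.957 to each log2 ratio from 2 to 6 hpf. It would add 1.10 to each of amanitin against control B, and at most 0.18 elsewhere. Directions that turn with it are given for called genes of the 6 and for the list medians printed below. For other single genes they are not given, and smaller falls in amanitin can turn.

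**Figure D1:**
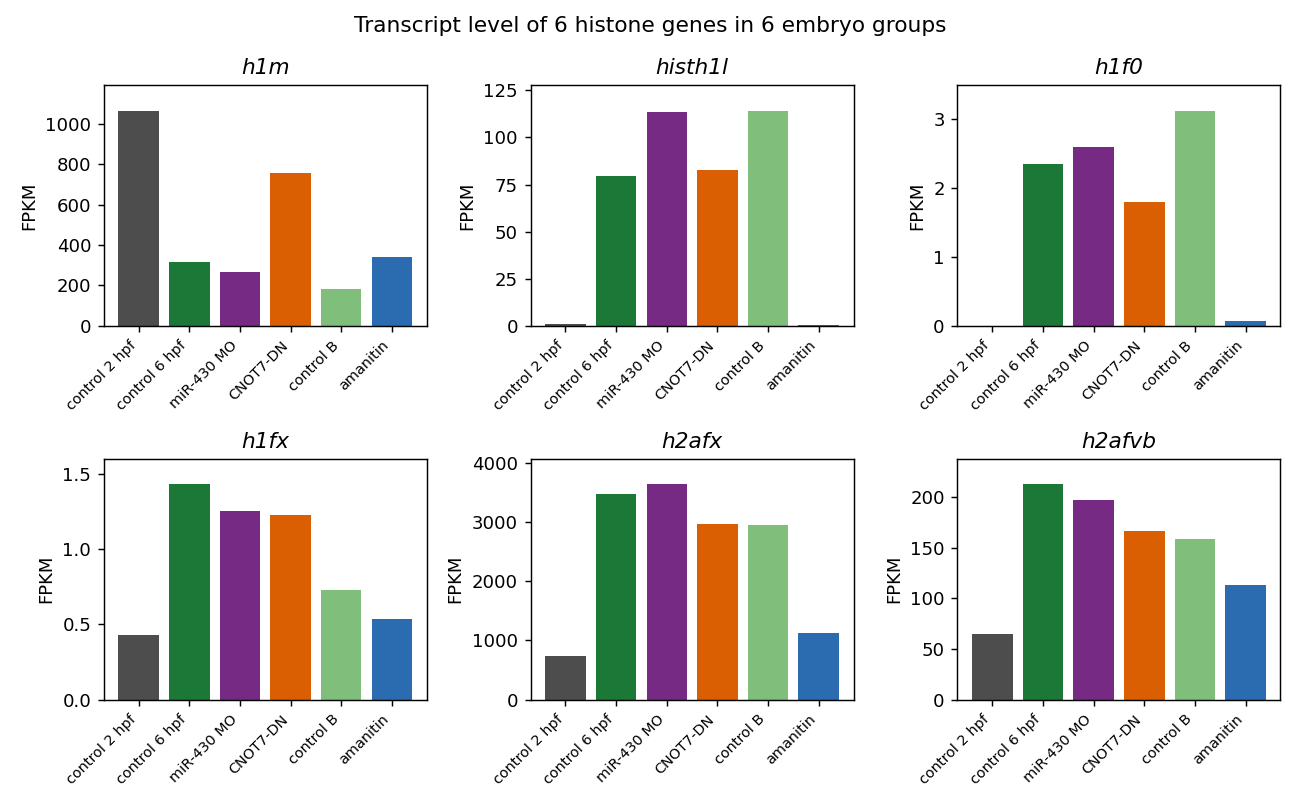
FPKM (vertical axis, linear and from 0, with its own scale for each gene) of the 6 histone genes in the 6 groups, 1 bar for the 1 deposited value of each group. The h1m bar is highest at 2 hpf, at 1064.5, and in CNOT7-DN, at 756, whereas the bars of histh1l at 2 hpf and in amanitin are under 1.

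From 2 to 6 hpf the egg linker histone h1m fell, and the other 3 linker histones and both H2A variants rose in the authors' deposited table. Over all 15504 genes tested 20.8% rose and 51.7% fell, so calls were common in this comparison. The gene h1m (ENSDARG00000040344, on the unplaced Zv9 scaffold Zv9_NA660, 14112 to 19625) encodes the maternal linker histone of zebrafish. Its level was 1064.5 FPKM at 2 hpf and, at 6 hpf, 313.8 in control 6 hpf, 182 in control B, 268 in miR-430 MO, 756 in CNOT7-DN and 339 in amanitin. The 2 hpf embryos and CNOT7-DN were thus high, and the 4 other groups lay lower, from 182 to 339. Among all genes of the table h1m ranked 54 from the highest FPKM at 2 hpf and 492 in control 6 hpf. Its log2 ratio of control 6 hpf to 2 hpf was -1.76 (q = 0.0001 in the authors' deposited table), and -2.54 with control B in place of control 6 hpf.

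The gene histh1l (ENSDARG00000035519, Zv9 chromosome 5, 29077506 to 29078900), a histone H1-like gene, had the opposite course. Its level was 0.858 FPKM at 2 hpf, 79.3 in control 6 hpf, 114 in control B, 113 in miR-430 MO, 82.9 in CNOT7-DN and 0.55 in amanitin. The 4 groups at 6 hpf that had not received amanitin were high, and the remaining groups were under 1 FPKM. The log2 ratio of control 6 hpf to 2 hpf was 5.43 (q = 0.0001 in the authors' deposited table), and 98.2% of measured genes had a lower one. Because the level at 2 hpf is so low, this size depended on the amount added before the log, and was 6.37 with 0.1 added and 3.85 with 5 added.

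The other linker histones were scarce throughout. The gene h1f0 (ENSDARG00000038559, chromosome 24, 39080413 to 39081731), whose mammalian counterpart H1.0 accumulates in differentiated cells that have left the cell cycle, was listed at 0 at 2 hpf. It stood at 2.35 FPKM in control 6 hpf, 3.12 in control B, 2.59 in miR-430 MO, 1.80 in CNOT7-DN and 0.0668 in amanitin. It rose from 2 to 6 hpf (q = 0.0001 in the authors' deposited table), and no fold is given against a level listed at 0. The gene h1fx (ENSDARG00000054058, chromosome 6, 40701152 to 40702449), a divergent linker histone, had levels of 0.432 FPKM at 2 hpf, 1.43 in control 6 hpf, 0.731 in control B, 1.26 in miR-430 MO, 1.23 in CNOT7-DN and 0.535 in amanitin. Its rise from 2 to 6 hpf had a log2 ratio of 0.76 (q = 0.00953 in the authors' deposited table), which turned to -0.19 when ribosomal protein genes were centred on 0. The control B level of h1fx lay nearer to the 2 hpf level than to control 6 hpf, so the order of its groups is not well separated from the gap between the controls.

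Set together, the summed level of the 4 linker histone genes was 1066 FPKM at 2 hpf and 397 in control 6 hpf, 300.3 in control B, 385 in miR-430 MO, 842 in CNOT7-DN and 340.1 in amanitin. Of that sum h1m made up 99.9% at 2 hpf, 79.1% in control 6 hpf, 60.7% in control B, 69.6% in miR-430 MO, 89.8% in CNOT7-DN and 99.7% in amanitin. The share of histh1l was 0.0805% at 2 hpf, 20.0% in control 6 hpf, 38% in control B, 29.4% in miR-430 MO, 9.84% in CNOT7-DN and 0.162% in amanitin. Thus h1m was the more abundant of the pair in every group, 3.96 times histh1l in control 6 hpf and 1.60 times in control B. These shares cover only the 4 genes listed and not linker histone genes that the table may hold under other names.

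**Figure D2:**
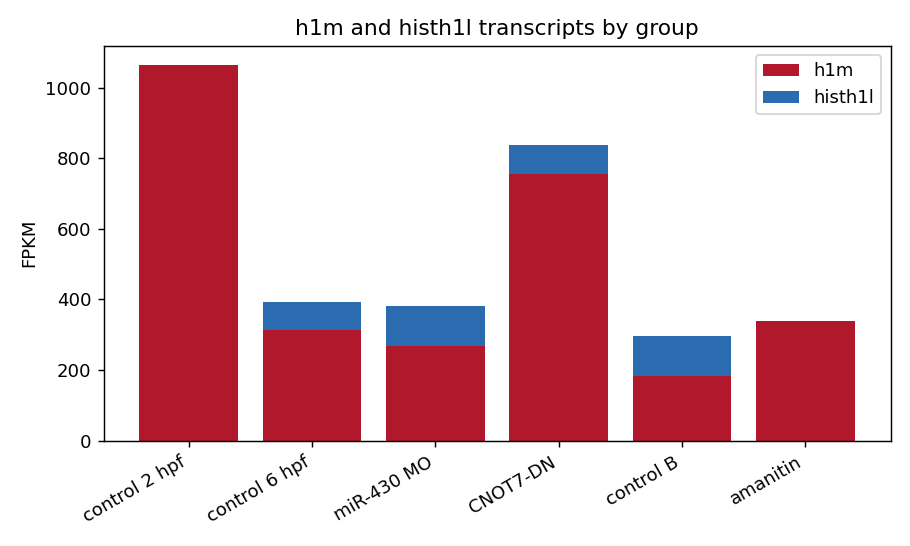
Stacked FPKM (vertical axis, linear, from 0) of h1m (red) and histh1l (blue) in each of the 6 groups. The whole bar is 1065 at 2 hpf and 393 in control 6 hpf, the blue part is not visible at 2 hpf and in amanitin, and CNOT7-DN keeps a red part of 756.

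The H2A variants were already present at 2 hpf and rose to 6 hpf. The gene h2afx (ENSDARG00000029406, chromosome 5, 32173723 to 32174335) encodes H2A.X and was the most abundant of the 6 genes in every group except at 2 hpf, where h1m was higher. Its levels were 738 FPKM at 2 hpf, 3483 in control 6 hpf, 2959 in control B, 3640 in miR-430 MO, 2979 in CNOT7-DN and 1123 in amanitin. The 4 groups at 6 hpf without amanitin lay close together, and amanitin lay between them and the 2 hpf embryos. The level in control 6 hpf was 4.72-fold that at 2 hpf (log2 ratio 2.24, q = 0.0001 in the authors' deposited table), and h2afx then ranked 37 of all genes.

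The gene h2afvb (ENSDARG00000042502, chromosome 10, 46362730 to 46372778) encodes an H2A.Z of the H2A.V type. Its levels were 64.7 FPKM at 2 hpf, 213 in control 6 hpf, 158 in control B, 197 in miR-430 MO, 167 in CNOT7-DN and 114 in amanitin. The order of the groups was that of h2afx apart from miR-430 MO and control 6 hpf, which changed places. The rise from 2 to 6 hpf was 3.29-fold (log2 ratio 1.70, q = 0.0001 in the authors' deposited table). For its paralog h2afva no change was called, with 413 FPKM at 2 hpf and 423 in control 6 hpf (q = 0.772 in the authors' deposited table). The share of h2afvb in the sum of the pair was 13.5% at 2 hpf, 33.4% in control 6 hpf, 24.4% in control B, 41.9% in miR-430 MO, 28.7% in CNOT7-DN and 19.5% in amanitin. It was thus lowest at 2 hpf and highest in miR-430 MO. Whether the authors' counting could divide reads between these similar genes is not known.

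**Figure D3:**
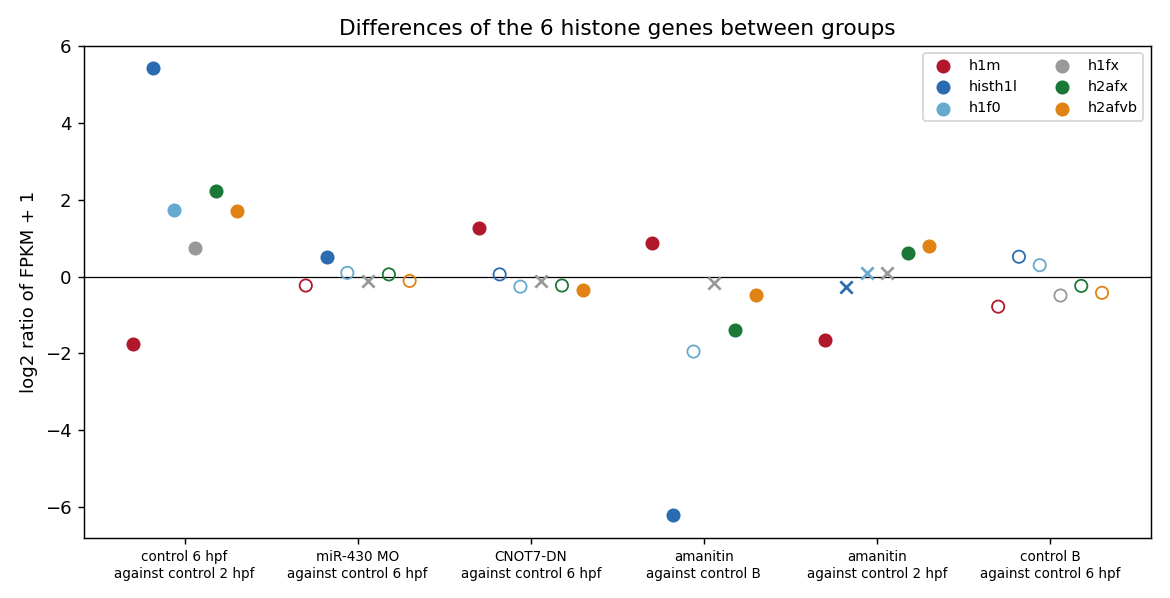
Log2 ratio of FPKM + 1 (vertical axis) of the 6 genes in each of 5 deposited comparisons and between the controls at 6 hpf (horizontal axis). Filled circles passed q under 0.05 in the authors' deposited table, open circles did not or, for control B against control 6 hpf, had no test, and crosses were not tested; histh1l reaches 5.43 from 2 to 6 hpf and -6.22 in amanitin, and h1m lies at 1.27 in CNOT7-DN. The first h1f0 point is against a level listed at 0 and gives no fold.

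The CNOT7-DN embryos give the level of these transcripts at 6 hpf where CNOT7 was inhibited. In CNOT7-DN embryos the egg linker histone stood far above its 6 hpf control and the other genes stayed near it. The level of h1m was 756 FPKM against 313.8, a 2.41-fold difference (log2 ratio 1.27, q = 0.000996 in the authors' deposited table), and 99.3% of measured genes had a lower log2 ratio. In that comparison 10.1% of 14439 tested genes rose and 4.0% fell. The level of h1m was 71.0% of that at 2 hpf in CNOT7-DN, against 29.5% in control 6 hpf and 17.1% in control B. Against control B the log2 ratio was 2.05, so h1m was high in CNOT7-DN beside either control. Of the 9 egg markers 5 rose and 0 fell in the same comparison in the authors' deposited table. Their summed level was 3459 FPKM against 2166, and none of them was listed at 0. Of the 9 gastrula markers 6 fell and 0 rose there. The part of either marker list in the h1m difference was not tested.

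The only other gene of the 6 called in CNOT7-DN was h2afvb, which fell from 213 to 167 FPKM (log2 ratio -0.35, q = 0.045 in the authors' deposited table). Against control B its log2 ratio was 0.07, so the direction of this small difference rested on the control used. Of the 9 gastrula markers 6 fell and 0 rose against control 6 hpf in the authors' deposited table (4.0% and 10.1% of all genes). They summed to 1061 FPKM in CNOT7-DN and 1295 in control 6 hpf, and their part in the h2afvb difference was not tested. For histh1l the log2 ratio was 0.06 (q = 0.818 in the authors' deposited table) and for h2afx -0.23 (q = 0.16). For h1f0 it was -0.26 (q = 0.506 in the authors' deposited table), and h1fx was not tested there.

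With miR-430 blocked, h1m was at the level of the controls. It had 268 FPKM in miR-430 MO, between control B at 182 and control 6 hpf at 313.8 (log2 ratio to control 6 hpf -0.23, q = 0.14 in the authors' deposited table). Against control B the log2 ratio was 0.55. The comparisons of miR-430 MO and CNOT7-DN share control 6 hpf, and h1m was at 268 FPKM in the one and 756 in the other. The difference between the treatments was not tested. Of the 9 egg markers 0 rose and 4 fell in miR-430 MO in the authors' deposited table (9.41% and 16.1% of all genes). They summed to 2025 FPKM in miR-430 MO and 2166 in control 6 hpf. Of the 6 genes 1 rose and 0 fell with the morpholino, where 9.41% of 14301 tested genes rose and 16.1% fell. The gene called was histh1l, at 113 FPKM against 79.3 (log2 ratio 0.51, q = 0.00193 in the authors' deposited table). With control B, at 114 FPKM, the log2 ratio was -0.01, so this rise was no larger than the gap between the controls. In the paralog pair of H2A.Z genes, h2afva fell from 423 to 273 FPKM (q = 0.000589 in the authors' deposited table). The levels of h2afvb were 213 and 197 FPKM (log2 ratio -0.11, q = 0.584 in the authors' deposited table). The difference between the paralogs was not tested. The level of h2afva was also lower in miR-430 MO than in control B, which stood at 490.3 FPKM. For h2afx and h1f0 the log2 ratios were 0.06 and 0.10 (q = 0.728 and 0.802 in the authors' deposited table), and h1fx was not tested.

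The amanitin embryos give the level of these transcripts at 6 hpf where RNA polymerase II was inhibited. Of the 6 genes 1 rose and 3 fell against control B, where 41.6% of 15235 tested genes rose and 29.2% fell. The fall of histh1l was the deepest, from 114 to 0.55 FPKM (log2 ratio -6.22, q = 0.000105 in the authors' deposited table), and 1.21% of measured genes lay lower. Against control 6 hpf its log2 ratio was -5.69. The level of histh1l in amanitin was close to its 0.858 FPKM at 2 hpf, a pair that was not tested. In h1f0 the levels were 3.12 and 0.0668 FPKM, with q = 0.281 in the authors' deposited table, so the difference did not pass. That does not show that h1f0 kept its level. Of the 9 gastrula markers 6 fell there and 3 did not pass. One of the 3 was sox32, at 188 FPKM in control B and 0.11 in amanitin (q = 0.0771 in the authors' deposited table). The gene h2afx fell from 2959 to 1123 FPKM (log2 ratio -1.40, q = 0.000105 in the authors' deposited table). Centring ribosomal protein genes on 0 adds 1.10 to that log2 ratio, which takes up most of the fall, whereas setting the median gene to 0 adds -0.123. The size of the fall thus depended on the reference genes, and ribosomal protein genes were themselves lower in amanitin than in control B. The fall of h2afvb, from 158 to 114 FPKM, had a log2 ratio of -0.48 (q = 0.00306 in the authors' deposited table) and turned to 0.62 when ribosomal protein genes were centred on 0.

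The egg linker histone rose in amanitin against control B, from 182 to 339 FPKM (log2 ratio 0.89, q = 0.000105 in the authors' deposited table). Against control 6 hpf, at 313.8 FPKM, the log2 ratio was 0.11, so the size of this difference depended on which control group stood beside it. Centring ribosomal protein genes on 0 adds 1.10 to the log2 ratio of 0.89, and setting the median gene to 0 adds -0.123. Of the 9 egg markers 5 rose and 2 fell in amanitin against control B in the authors' deposited table, with sums of 2278 and 1521 FPKM. Of 8 measured markers of germ plasm and germ cells, a list that shares buc and dazl with that of the egg, 7 rose in the authors' deposited table, with sums of 954 and 344 FPKM. Over all genes tested against control B 41.6% rose and 29.2% fell. The part of these markers in the h1m difference was not tested.

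Amanitin embryos at 6 hpf were also compared with the 2 hpf control, which follows the RNA of the egg over the same hours. There h1m fell from 1064.5 to 339 FPKM (log2 ratio -1.65, q = 0.000123 in the authors' deposited table), and 31.8% of its 2 hpf level remained. In that comparison 22.2% of 13957 tested genes rose and 44.1% fell. Both H2A variants gained in FPKM, h2afx 1.52-fold from 738 to 1123 (log2 ratio 0.61) and h2afvb 1.76-fold from 64.7 to 114 (log2 ratio 0.80), each with q = 0.000123 in the authors' deposited table. FPKM are relative, so these gains do not by themselves mean new RNA. The other 3 linker histones were under 1 FPKM in both groups and were not tested.

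The controls at 6 hpf give the only difference between control groups of the same stage, and a test of it was not used here. Control 6 hpf had 313.8 FPKM of h1m and control B 182 (log2 ratio -0.78), and 3.44% of measured genes lay lower. For histh1l the log2 ratio of control B to control 6 hpf was 0.52, for h1f0 0.30, for h1fx -0.49, for h2afx -0.24 and for h2afvb -0.42. None of the 6 genes was 2-fold apart, and 3.91% of 15826 measured genes were. At least 2-fold apart on this scale were 5 of the 6 from 2 to 6 hpf, h1f0 against its 0 included (48.5% of measured genes), 1 in CNOT7-DN (2.77%), 0 in miR-430 MO (4.92%), 3 in amanitin against control B (49.2%) and 1 in amanitin against 2 hpf (33.8%). Control B thus had less h1m and more histh1l than control 6 hpf, while the 9 egg markers summed to 1521 and 2166 FPKM and the 9 gastrula markers to 1396 and 1295.

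**Figure D4:**
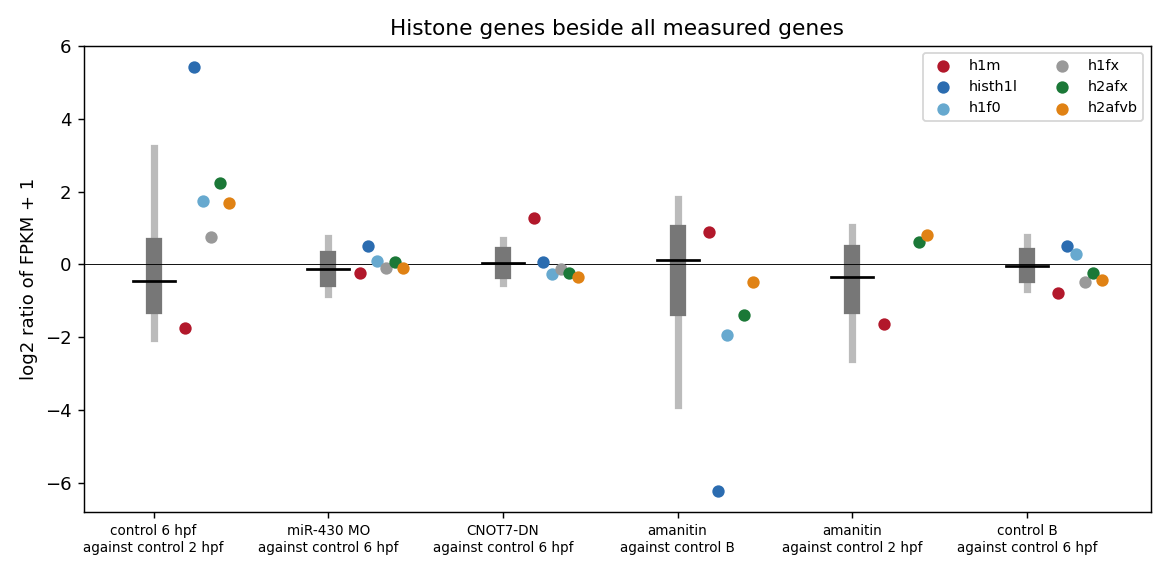
Log2 ratio of FPKM + 1 (vertical axis) of the histone genes (coloured points, those at 1 FPKM or more in either group) beside all measured genes in each comparison. The black tick is the median of all genes. The dark bar is the middle from the 25th to the 75th percentile and the pale bar from the 5th to the 95th. The h1m point lies above the pale bar in CNOT7-DN and below it in control B against control 6 hpf. The histh1l point lies outside it from 2 to 6 hpf and in amanitin against control B.

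The 6 genes had unlike courses. Over the 6 groups the root mean square difference between gene-centred log2(FPKM + 1) values was largest between h1m and histh1l, at 3.28, and it was 0.37 between h2afx and h2afvb. The smallest, 0.24, lay between h2afx and h1f0, but the low level of h1f0 is compressed by the added 1. By the same measure, among 8650 genes that reached 10 FPKM in some group, the genes most like h1m were mrps30, which encodes a mitochondrial ribosomal protein (0.128), snapc1a, of the complex that starts transcription of small nuclear RNA genes (0.136), and qtrt1, of a tRNA-modifying enzyme (0.162). The level of mrps30 was 46.9 FPKM at 2 hpf, 34.7 in CNOT7-DN, 14.7 in amanitin, 10.5 in control 6 hpf, 9.81 in miR-430 MO and 6.97 in control B, which is the order of h1m. Most like histh1l were cart4 (0.16), notum1a, encoding an enzyme that inactivates Wnt (0.187), and acer1, a ceramidase (0.204). The level of notum1a was 0.345 FPKM at 2 hpf and 0.195 in amanitin, against 66.6 to 114 in the other groups. Most like h2afx were the RNA helicase gene ddx5 (0.094), snrnp70 of the spliceosome (0.109) and C8H1orf194 (0.116), and most like h2afvb were ctcf, encoding a chromatin insulator protein (0.122), hnrnph1l (0.134) and rplp2l (0.138). For h1f0 they were satb1a (0.08), rnf10 (0.096) and slc16a1 (0.099), and for h1fx tmpob (0.104), rps26 (0.107) and fxr1 (0.108). The added 1 compresses the courses of h1f0 and h1fx, so their likeness to more abundant genes depends on it. From 2 hpf to control 6 hpf satb1a had 6.70 and 26.2 FPKM, and h1f0 0 and 2.35. Likewise fxr1 had 98.1 and 133 FPKM, and h1fx 0.432 and 1.43. Each likeness rests on 6 points that share the same libraries and is a description.

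No other gene of the table overlapped the locus of any of the 6. The nearest neighbour of histh1l on chromosome 5 was a histone H4 gene, HIST4H4 (ENSDARG00000061547, 29074420 to 29074796), 2710 bases away. It had 125 FPKM at 2 hpf, 1673 in control 6 hpf, 1329 in control B, 1894 in miR-430 MO, 1565 in CNOT7-DN and 156 in amanitin. It was thus present at 2 hpf, where histh1l was under 1 FPKM, and was high in the same 4 groups. Other genes within 20000 bases of histh1l, such as cybasc3a at 14.5 FPKM at 2 hpf and 6.72 in control 6 hpf, were lower in control 6 hpf than at 2 hpf.

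Most other histone genes rose from 2 to 6 hpf, as h2afx did, and most fell in amanitin against control B. The table had 19 further rows with histone symbols, of which 17 were measured. From 2 to 6 hpf the authors' deposited table had 13 rises and 1 fall among the 16 tested (20.8% and 51.7% of all genes), with a median log2 ratio of 1.58 beside -0.47 for all genes. The gene h3f3a, encoding H3.3, the H3 variant placed outside replication, rose from 1074 to 5173 FPKM (q = 0.0001 in the authors' deposited table). The macroH2A gene h2afy, of a variant linked to silent chromatin, rose from 0.863 to 15.1 FPKM (q = 0.0001 in the authors' deposited table). The replication-dependent H4 gene HIST1H4A rose from 1267 to 4573 FPKM (q = 0.0001 in the authors' deposited table). For CENPA, the centromeric H3 variant, 11.9 and 15.5 FPKM were listed (q = 0.246 in the authors' deposited table), on a locus that 2 other rows share. The single fall was that of hist2h2l, from 31.2 to 18.3 FPKM (q = 0.0001 in the authors' deposited table). Histone gene copies are near-identical, so values of single core histone rows are uncertain. Their mRNA lacks a poly(A) tail when it comes from replication-dependent genes, and the libraries, per the labels' protocols, were of total RNA depleted of ribosomal RNA.

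In amanitin 12 of the 16 tested fell and 0 rose against control B in the authors' deposited table (29.2% and 41.6% of all genes), with a median log2 ratio of -0.82, which turned to 0.28 when ribosomal protein genes were centred on 0. Here h3f3a fell from 5120 to 1509 FPKM and h2afy from 16.2 to 1.32 (q = 0.000105 for each in the authors' deposited table). The h3f3d row on chromosome 24 had 470 FPKM in control B and 518 in amanitin (q = 0.355 in the authors' deposited table). The other h3f3d row, on chromosome 5, fell from 92.7 to 62.1 FPKM (q = 0.00472 in the authors' deposited table). Against 2 hpf, 8 of 16 rose and 4 fell in amanitin in the authors' deposited table (22.2% and 44.1% of all genes), with a median of 0.33. In CNOT7-DN the authors' deposited table had 0 rises and 1 fall (10.1% and 4.0% of all genes), and that was h2afy, at 15.1 and 8.86 FPKM (q = 0.000996). In miR-430 MO the authors' deposited table had 2 rises and 2 falls (9.41% and 16.1% of all genes): h3f3c rose from 638 to 821 FPKM and HIST1H4A from 4573 to 5594, and h3f3a fell from 5173 to 3828 and h2afva as above. Thus h1m rose in CNOT7-DN and none of these histone genes did, and the difference between them was not tested.

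The summed level of the 9 core histone rows whose symbols start with hist, histh1l not among them, was 4759 FPKM at 2 hpf, 17979 in control 6 hpf, 18030 in CNOT7-DN, 20884 in miR-430 MO, 13595 in control B and 5020 in amanitin. For every 100 FPKM of these core histone rows the 4 linker histones had 22.4 FPKM at 2 hpf, 2.21 in either 6 hpf control, 1.84 in miR-430 MO, 4.67 in CNOT7-DN and 6.77 in amanitin. The ratio was thus alike in both controls, although h1m and histh1l each differed between them. It covers only the rows named so, and histone genes under other names are not in it. Most of the 9 rows are H3 and H4 genes, whose near-identical copies make single values uncertain. HIST1H4G was listed at 0 in every group but control B, and HIST1H2BA lies on a locus that other rows share.

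**Figure D5:**
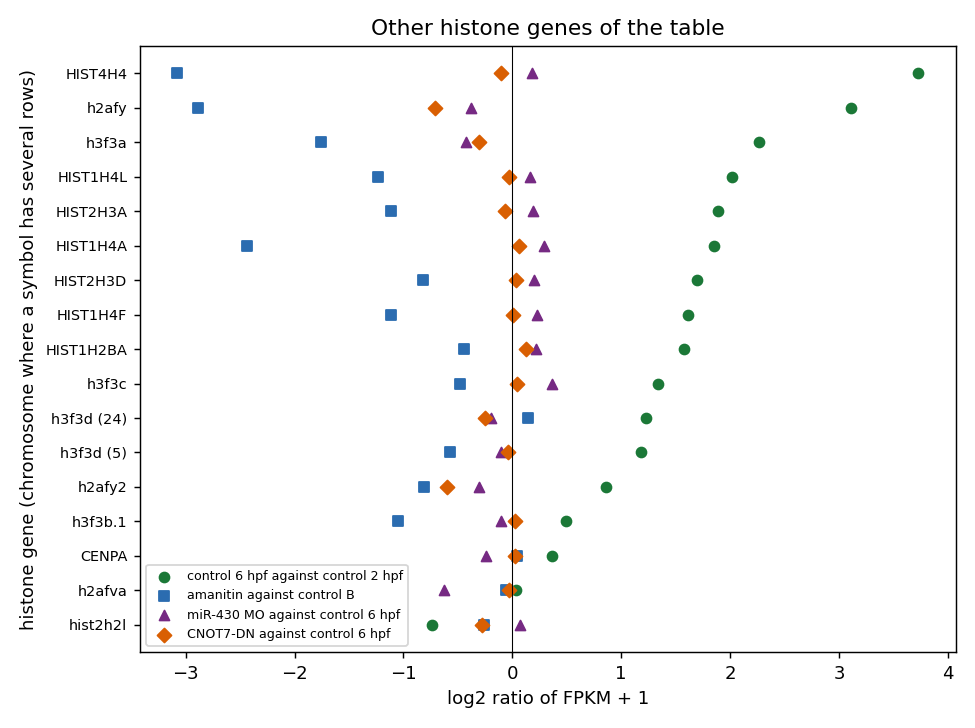
Log2 ratio of FPKM + 1 (horizontal axis) of the 17 other histone rows that reached 1 FPKM in some group (vertical axis), in 4 comparisons marked by colour and shape. Values from 2 to 6 hpf (green circles) are above 0 for all but hist2h2l, those of amanitin (blue squares) lie mostly below 0, and those of CNOT7-DN and miR-430 MO lie between -0.71 and 0.36.

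Histone chaperones, which carry histones to and from DNA, went both ways. Of 32 measured, 11 rose and 14 fell from 2 to 6 hpf in the authors' deposited table, beside 20.8% and 51.7% of all genes. The median log2 ratio of these chaperones was -0.18, which turned to 0.29 when the median gene was set to 0. With ribosomal protein genes centred on 0 it was -1.13. Here nasp, which binds linker histones as well as H3 and H4 in mammals, had a course like that of h1m in control and CNOT7-DN embryos. It fell from 929 FPKM at 2 hpf to 258 in control 6 hpf (q = 0.0001 in the authors' deposited table) and rose to 494 in CNOT7-DN (q = 0.000996 in the authors' deposited table). The deposited loci of nasp, anp32e, chek2 and wee1 each hold another gene. In amanitin nasp was at 205 FPKM beside 221 in control B (q = 0.498 in the authors' deposited table). The nucleophosmin gene npm1a rose from 329 to 863 FPKM from 2 to 6 hpf, and anp32e, which removes H2A.Z from nucleosomes in mammals, rose from 250.2 to 922 (q = 0.0001 for each in the authors' deposited table). In CNOT7-DN 2 chaperones rose and 0 fell, in miR-430 MO 3 rose and 6 fell, and in amanitin 16 rose and 12 fell against control B in the authors' deposited table. For all genes the shares that rose and fell were 10.1% and 4.0% in CNOT7-DN, 9.41% and 16.1% in miR-430 MO, and 41.6% and 29.2% in amanitin.

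Complexes that place or remove H2A.Z, with 20 measured genes, also went both ways. In all 5 rose and 8 fell from 2 to 6 hpf in the authors' deposited table, beside 20.8% and 51.7% of all genes. The median log2 ratio of these complexes was -0.07, which turned to 0.39 when the median gene was set to 0. With ribosomal protein genes centred on 0 it was -1.03. The ATPase gene ruvbl1 of these complexes had 116 FPKM at 2 hpf and 109 in control 6 hpf (q = 0.441 in the authors' deposited table). It rose to 161 in CNOT7-DN (q = 0.000996 in the authors' deposited table). The TIP60 complex gene mrgbp fell from 150 to 76.3 FPKM (q = 0.0001 in the authors' deposited table). In amanitin 8 rose and 7 fell against control B (41.6% and 29.2% of all genes), in miR-430 MO 2 rose and 3 fell (9.41% and 16.1%), and CNOT7-DN had 2 rises and 0 falls (10.1% and 4.0%) in the authors' deposited table.

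Genes of H2A.X and DNA damage signalling went mostly opposite to h2afx. Of 22 measured, 3 rose and 16 fell from 2 to 6 hpf in the authors' deposited table, beside 20.8% and 51.7% of all genes, with a median log2 ratio of -1.01, and of -0.54 when the median gene was set to 0. The checkpoint kinase genes chek1 and chek2 fell from 98.6 to 28.4 and from 101 to 24.7 FPKM (q = 0.0001 for each in the authors' deposited table), and each rose in CNOT7-DN, to 42.1 and 38.4 (q = 0.00254 and 0.000996 in the authors' deposited table). The kinase gene wee1, which holds cells before mitosis, rose from 14.9 to 140 FPKM and fell in amanitin from 163 to 12 in the authors' deposited table. In amanitin 12 rose and 6 fell against control B (41.6% and 29.2% of all genes), in miR-430 MO 7 rose and 4 fell (9.41% and 16.1%), and CNOT7-DN had 3 rises and 0 falls (10.1% and 4.0%) in the authors' deposited table.

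HMG proteins are abundant in chromatin, and some compete with linker histones for nucleosomes. Of 9 measured, 8 rose and 0 fell from 2 to 6 hpf in the authors' deposited table (20.8% and 51.7% of all genes), with a median of 1.63 beside -0.47 for all genes. The gene hmga1a rose from 351 to 1979 FPKM and hmgn2 from 34.8 to 284 (q = 0.0001 for each in the authors' deposited table). In amanitin 8 of the 9 fell and 1 rose against control B in the authors' deposited table (29.2% and 41.6% of all genes), with hmgn2 at 296 and 27.1 FPKM. The median log2 ratio of the 9 was -1.35 there, and -0.25 when ribosomal protein genes were centred on 0. In miR-430 MO there were 3 rises and 0 falls (9.41% and 16.1% of all genes), and hmgn2 rose from 284 to 361 FPKM (q = 0.0277 in the authors' deposited table). CNOT7-DN had 0 rises and 0 falls (10.1% and 4.0% of all genes) in the authors' deposited table.

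Of 17 measured factors that form or degrade the ends of histone mRNA, 5 rose and 5 fell from 2 to 6 hpf in the authors' deposited table, beside 20.8% and 51.7% of all genes. The stem-loop binding protein gene slbp, whose product binds the 3′ end of replication-dependent histone mRNA, had 408 FPKM at 2 hpf, 497 in control 6 hpf, 461 in control B, 365 in miR-430 MO, 516 in CNOT7-DN and 35.7 in amanitin. Its level in amanitin was thus far below that of every other group, the 2 hpf embryos included. It fell against control B (log2 ratio -3.65, q = 0.000105 in the authors' deposited table) and against 2 hpf (log2 ratio -3.48, q = 0.000123 in the authors' deposited table). Other abundant factors of the list differed from slbp in amanitin against control B. There zcchc8 rose from 63.2 to 153 FPKM and cdk9 from 121 to 150 (q = 0.000105 and 0.0158 in the authors' deposited table). No change was called for srrt (q = 0.636 in the authors' deposited table). In amanitin 5 of these factors rose and 4 fell against control B (41.6% and 29.2% of all genes), in miR-430 MO 2 rose and 3 fell (9.41% and 16.1%), and CNOT7-DN had 3 rises and 2 falls (10.1% and 4.0%) in the authors' deposited table.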

How the data were processed

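Per the labels' protocols, total RNA was depleted of ribosomal RNA and made into stranded libraries. The submitters' processing notes name TopHat 1.4.0, Cuffdiff 2.1.1 and the build Zv9 (danRer7). The deposited table gives the FPKM of both groups in 5 comparisons with a p-value and q-value, per the file headers. How libraries were scaled, whether counting used strand, and which annotation was used are not stated in these sources. FPKM came from the first comparison that holds a group. From it log2 ratios of FPKM + 1 were computed, counting genes at 1 FPKM or more in either group as measured, in Python 3.11.15 with numpy 2.4.6 and pandas 2.3.3. Calls are the authors' q under 0.05; no test was computed here. The scripts were tested on simulated data. The base from which locus starts count was not checked.

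The genes and lists were chosen with earlier results of these data known. Besides the 6 genes, the rule for named genes takes the 4 most abundant genes of each of 6 lists, H2A and H3 variants, and the 3 genes nearest in pattern to each of the 6, without placeholder names and small RNAs. Not every gene that it takes is described above: anp32b, brd8, morf4l1, ppm1da, hmgb2a and hmgb2b, among others, were left out. HIST4H4 and cybasc3a, neighbours of histh1l, and hist2h2l, the single fall of its list, were named after their values were seen. Alternatives were other pseudocounts, minimum levels, scalings, size limits and controls. Sequences were not used here.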

Additional observations from a re-analysis of the deposited data

How the results depend on the processing

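Depth is unknown, so the precision of low genes (h1f0, h1fx, and histh1l at 2 hpf and in amanitin) cannot be given. No replicate could be left out, since each group has 1 deposited value. No paired analysis was possible because each group has 1 value and no replicate numbers. Calls are the authors' and do not change with the settings; sizes and directions do. Between log2 ratios, a shift under 0.40, which covers 68% of measured genes between the controls, was taken as unchanged. Among the log2 ratios of the 6 genes, 196 values under alternatives moved less than this, 42 more, and 4 of called genes turned sign. These were h1fx from 2 to 6 hpf (-0.19) and h2afvb in amanitin (0.62), both centred on ribosomal protein genes, and, with control B in place of control 6 hpf, histh1l in miR-430 MO (-0.01) and h2afvb in CNOT7-DN (0.07). The cause was not tested. Rescaled to equal summed FPKM, the log2 ratios from 2 to 6 hpf were -2.27 for h1m, 4.93 for histh1l, 1.73 for h2afx and 1.19 for h2afvb.

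The number of the 6 genes at least 2-fold apart was 5 from 2 to 6 hpf, 1 in CNOT7-DN, 0 in miR-430 MO, 3 in amanitin against control B, 1 against 2 hpf and 0 between the controls. Centred on ribosomal protein genes it was 3 from 2 to 6 hpf, and centred on the median gene it was 2 in amanitin against 2 hpf. With a 4-fold limit the counts were 2 from 2 to 6 hpf, 0 in CNOT7-DN, 1 in amanitin against control B and 0 against 2 hpf. With a 1.5-fold limit they were 3 in amanitin against 2 hpf and 1 between the controls. The other alternatives run kept these counts within 1.5 times, and leaving out symbols on several rows kept each list's count of calls within 1.5 times. A kept count can hold other genes. In amanitin against control B, centring on ribosomal protein genes adds 1.10 to each log2 ratio. That takes h2afx (-1.40) and h1f0 (-1.95) out of the 2-fold limit and brings h1m (0.89) past it, while histh1l stays.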
